A study of Mus musculus with 6 samples.

Results

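The BCL2 family genes described here are 10 mouse genes that keep cells alive or commit them to apoptosis, chosen by gene symbol from the 21515 genes of the deposited table: the anti-apoptotic genes Bcl2, Bcl2l1, Mcl1, Bcl2a1a, Bcl2a1b and Bcl2a1d, the BH3-only genes Bcl2l11, Bbc3 and Pmaip1, and the effector Bax. All 10 symbols were found. RNA was sequenced from C57BL/6 mouse bone marrow cells made immortal by NUP98-NSD1, a leukaemia fusion, together with NRASG12D, an activated RAS, and both groups carried these. Clec12a knockout cells (3 libraries, replicates 1, 4 and 5) received Cas9 and the T44 guide RNA against Clec12a, a lectin-like myeloid receptor that dampens activation, from a lentivirus with a dTomato reporter. lacZ control cells (3 libraries, replicates 6, 8 and 9; Clec12a wt by genotype label) received the same vector with a guide against the bacterial gene lacZ. All libraries came from cells that were sorted singly, expanded, and given 15% serum, 10 ng/mL of interleukin-6, 6 ng/mL of interleukin-3 and 20 ng/mL of stem cell factor for 48 hours. Whether each library stems from a separate sorted cell, and the age of the mice, are not stated in the labels, so p-values reflect only how these libraries vary, which may be clonal or technical.

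The family controls the outer mitochondrial membrane. BAX and its relative BAK open pores that release cytochrome c and start the caspase cascade. BCL2, BCL-XL, MCL1 and A1 bind and restrain them, and BH3-only proteins such as BIM, PUMA and NOXA occupy the restrainers or activate the effectors. Cytokines and oncogenes shift this balance in blood cells, and drugs that mimic a BH3 domain are used against myeloid leukaemia. Much of the regulation is at the level of protein, which RNA does not show.

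Values are FPKM (fragments scaled by transcript length and by mapped fragments), so that genes can be set beside each other per length. Summed over all genes they came to 590211 to 699113 FPKM in knockout libraries, against 534440 to 554534 FPKM in lacZ libraries, and depth was estimated at 33700000 to 60600000 fragments per library. Clec12a itself was at 170, 129 and 94.5 FPKM in knockout cells against 157, 246 and 280 FPKM in lacZ cells, so the groups overlapped (log2 fold change -0.79, SE 0.29, limma adjusted p = 0.130; exact two-sided permutation p = 0.2, where 0.1 is the smallest possible). A small edit need not lower FPKM over the whole gene, so this level does not check the labels. Most myeloid identity genes were present in all libraries, with the summed FPKM of 13 identity markers at 6136 to 11919 in knockout libraries and 4326 to 8362 in controls and none of the 12 tested past the threshold. The progenitor marker Cd34 stayed at 0.13 FPKM or less, and Kit was below 1 FPKM in knockout replicate 1 and control replicate 9. Mpo, the myeloperoxidase gene, was at 0.289, 1.202 and 9.36 FPKM in knockout cells against 455, 737 and 10.2 FPKM in lacZ cells. Its log2 fold change of -5.66 (limma adjusted p = 0.0763) was the largest in size of all genes tested but did not pass, and its part in the family's values was not tested. Knockout replicate 4 stood apart: it held the highest or lowest value of the 6 libraries for 8 of the 10 BCL2 family genes. Control replicate 6 did so for 6, with the lowest value of Bcl2l1, Mcl1 and the 3 Bcl2a1 copies.

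None of the 10 genes passed the test, but the 5 tested anti-apoptotic genes, Bbc3 and Bax had higher means in knockout cells, and Bcl2l11 and Pmaip1 lower ones. Of the 10 genes, 9 reached 1 FPKM in at least 3 libraries and entered the fit across 9830 genes. At an adjusted p under 0.05 (limma on log2(FPKM + 1), Benjamini-Hochberg over all genes tested) 0 of these 9 were called, against 1.9% of all genes tested. At an adjusted p under 0.1 it was 1 (Bbc3), against 11.3%, and at an unadjusted p under 0.05 it was 6, against 27.9%. The 3 knockout values lay outside the range of the 3 control values for 5 of the 9 (Bcl2a1a, Bcl2a1b, Bcl2a1d and Bbc3 above it and Bcl2l11 below it), against 36.3% of all genes tested (14.5% above and 21.8% below). The fold change was above 0 for 7 of the 9, against 46% of all genes tested, and its median was 0.54, against -0.06. The 3 near-identical Bcl2a1 copies, described below, are in each of these counts of 6, 5 and 7 and are not independent of each other. Summed into 1 gene, which leaves 7 tested members, the copies again lay above all controls. The counts over 9 therefore cannot be read as an excess of the family over the shares of all genes. With libraries weighted by their quality, 7 of the 9 passed, but so did 42.3% of all genes tested.

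**Figure D1:**
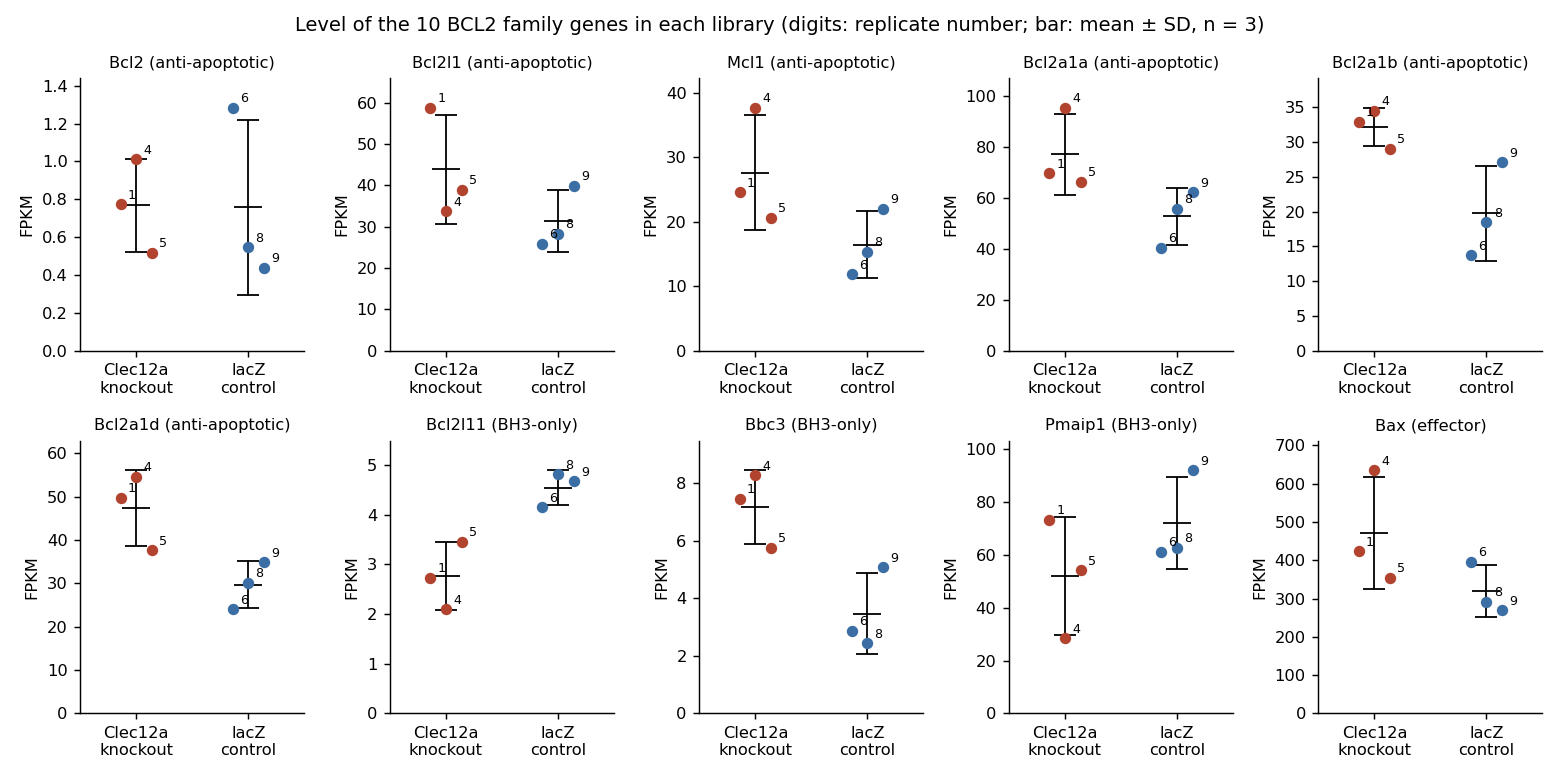
FPKM of each of the 10 genes (vertical axes, linear from 0) in the 3 Clec12a knockout libraries (red, left) and the 3 lacZ control libraries (blue, right), with the mean and SD as bars. The knockout points of Bcl2a1a, Bcl2a1b, Bcl2a1d and Bbc3 lie above all control points and those of Bcl2l11 below them, while the groups overlap for the other genes.

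The levels spanned a wide range, and their order was much the same in both groups. In knockout libraries the mean FPKM ran from Bax (471) through Bcl2a1a (77.2), Pmaip1 (52.0), Bcl2a1d (47.3), Bcl2l1 (43.8), Bcl2a1b (32.2), Mcl1 (27.6), Bbc3 (7.16) and Bcl2l11 (2.76) to Bcl2 (0.767). In control libraries it ran from Bax (319) through Pmaip1 (72.0), Bcl2a1a (52.8), Bcl2l1 (31.4), Bcl2a1d (29.7), Bcl2a1b (19.8), Mcl1 (16.4), Bcl2l11 (4.54) and Bbc3 (3.46) to Bcl2 (0.757). Bax stood clear of all others, and Bcl2 clear below all others, in both groups. In knockout libraries the neighbours from Bcl2a1a to Mcl1 overlapped each with the next, whereas Mcl1, Bbc3, Bcl2l11 and Bcl2 were separated. In controls the neighbours Pmaip1 and Bcl2a1a overlapped, as did those from Bcl2l1 to Mcl1, and Bcl2l11 overlapped with Bbc3.

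Among the anti-apoptotic genes, Bcl2 was barely expressed. Bcl2 (chromosome 1, 106538178 to 106714274, minus strand, GRCm38), the founding member and the target of venetoclax, was at 0.774, 1.01 and 0.517 FPKM in knockout cells against 1.28, 0.548 and 0.438 FPKM in lacZ cells. The groups overlapped fully, and only knockout replicate 4 and control replicate 6 reached 1 FPKM. It therefore did not enter the main fit. The exact permutation p, two-sided, was 1, and a fit without the filter gave a log2 fold change of 0.03 (95% interval -0.47 to 0.53, limma adjusted p = 0.946). At the estimated depths these levels correspond to roughly 125 to 560 fragments per library over its longest transcript.

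Mcl1 (chromosome 3, 95658788 to 95663176), whose short-lived protein restrains BAK and is needed by blood stem cells and neutrophils, was at 24.6, 37.7 and 20.6 FPKM in knockout cells against 11.9, 15.4 and 22.1 FPKM in lacZ cells. Knockout replicate 5 lay just below control replicate 9, so the groups overlapped. The means were 27.6 ± 8.95 and 16.4 ± 5.16 FPKM (SD, n = 3 each), a log2 fold change of 0.71 (SE 0.29, 95% interval 0.04 to 1.38) with a limma adjusted p of 0.160. Without knockout replicate 4 the log2 fold change was 0.47. With every library adjusted for the length and GC content of transcripts it was 0.84.

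Bcl2l1 (chromosome 2, 152780668 to 152831728), which encodes BCL-XL, was at 58.8, 33.8 and 38.9 FPKM in knockout cells against 25.9, 28.3 and 39.9 FPKM in lacZ cells. Control replicate 9 lay above knockout replicates 4 and 5. This gave a log2 fold change of 0.45 (SE 0.26, 95% interval -0.14 to 1.05, limma adjusted p = 0.279), and it was 0.23 without knockout replicate 1, which had the highest value. For Bcl2l1, as for Mcl1 and Bcl2l11, splicing yields isoforms of different activity, and gene-level FPKM does not separate them.

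The Bcl2a1 genes encode A1, a relative restricted largely to blood cells and induced by NF-kB. The mouse carries several near-identical copies, of which 3 on chromosome 9 are described here. They are Bcl2a1a (88956900 to 88962419), Bcl2a1b (89199209 to 89207827) and Bcl2a1d (88723285 to 88731914, minus strand). Their coding sequences of 516 bases were 97.9% identical between Bcl2a1a and Bcl2a1b, 98.6% between Bcl2a1a and Bcl2a1d and 98.8% between Bcl2a1b and Bcl2a1d. The stretch of 60 coding bases with the most differences was picked for display. It is the first 60 (GENCODE M21) and holds 6 of the 12 positions at which the 3 copies differ, in capitals.
Bcl2a1a: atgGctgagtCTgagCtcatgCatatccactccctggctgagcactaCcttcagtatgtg
Bcl2a1b: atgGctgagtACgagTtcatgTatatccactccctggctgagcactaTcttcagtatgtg
Bcl2a1d: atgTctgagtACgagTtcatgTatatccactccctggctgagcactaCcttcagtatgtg
Of all windows of 50 bases along the transcripts, 67.7% of those of Bcl2a1a, 57.6% of those of Bcl2a1b and 79.5% of those of Bcl2a1d occurred exactly in another of the 3. How the authors assigned reads that fit several copies is not stated, so the split between copies is uncertain, and their sum is given as well. Bcl2a1c, another gene of this name in the deposited table, is in neither the windows nor the sum. It was at 1.81, 2.14 and 2.02 FPKM in knockout cells against 1.22, 1.58 and 1.41 FPKM in lacZ cells (limma adjusted p = 0.287). A further 49.1% of the exon bases of Bcl2a1b are shared with the gene model Gm29094 on the same strand, which was itself at 1.41 FPKM or less.

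All 3 copies were higher in each knockout library than in any control. Bcl2a1a was at 69.7, 95.4 and 66.4 FPKM in knockout cells against 40.4, 55.8 and 62.2 FPKM in lacZ cells (log2 fold change 0.54, SE 0.23, limma adjusted p = 0.169). Bcl2a1b was at 32.9, 34.5 and 29.1 FPKM in knockout cells against 13.7, 18.5 and 27.1 FPKM in lacZ cells (log2 fold change 0.72, SE 0.26, limma adjusted p = 0.124). Bcl2a1d was at 49.7, 54.6 and 37.6 FPKM in knockout cells against 24.1, 30.2 and 34.9 FPKM in lacZ cells (log2 fold change 0.65, SE 0.22, limma adjusted p = 0.114). In each case control replicate 9 came closest to the knockout libraries. Summed before the fit, the copies stood at 152, 185 and 133 FPKM in knockout cells against 78.2, 104 and 124 FPKM in lacZ cells, with a log2 fold change of 0.62 (SE 0.23, 95% interval 0.11 to 1.14, limma adjusted p = 0.130). Bcl2a1a took 45.7% to 51.7% of that sum in knockout libraries and 50.1% to 53.4% in controls. After the length and GC correction the log2 fold changes were 0.16 for Bcl2a1a, 0.34 for Bcl2a1b and 0.27 for Bcl2a1d. A1 and MCL1 are also abundant in mature neutrophils, whose 12 markers had no member at 0 throughout and a summed level of 2195 to 3176 FPKM in knockout libraries against 1064 to 5538 FPKM in controls. Of the 11 that were tested, 3 rose (Ly6g, Lcn2 and Retnlg) and none fell, against 1.38% and 0.519% of all genes tested. Csf3r, Ltf and Mmp8 of the same list had log2 fold changes of -0.72, -0.49 and -0.49 and did not pass. Their part in the Bcl2a1 values was not tested, and in these bulk samples more cells of a type and more RNA per cell cannot be told apart.

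The upstream sequences of the 3 copies are shown because all 3 had higher values in knockout cells. Each holds GAGGAAGT, the core bound by PU.1 (SPI1), the master transcription factor of myeloid cells, on the sense strand. Its first base lies at position -104 from the RefSeq start in Bcl2a1a and Bcl2a1d and at -148 in Bcl2a1b. The stretches below (RefSeq, GRCm38.p6, written 5′ to 3′ along each gene) carry that core in capitals and come from chr9:88956776-88956865 (plus strand), chr9:89199085-89199174 (plus strand) and chr9:88731905-88731994 (minus strand).
Bcl2a1a: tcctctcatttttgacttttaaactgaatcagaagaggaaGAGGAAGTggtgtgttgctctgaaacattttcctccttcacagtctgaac
Bcl2a1b: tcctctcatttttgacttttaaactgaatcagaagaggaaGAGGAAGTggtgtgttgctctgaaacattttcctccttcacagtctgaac
Bcl2a1d: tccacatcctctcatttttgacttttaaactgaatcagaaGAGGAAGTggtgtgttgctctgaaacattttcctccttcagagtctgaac
On either strand, 3.2% of the 32851 promoter windows of 300 bases held this core. The stretches of Bcl2a1a and Bcl2a1b are identical and that of Bcl2a1d is nearly the same, so the 3 matches are not independent. They therefore cannot be read as an enrichment over that share. Spi1 itself was at 221, 263 and 212 FPKM in knockout cells against 191, 200 and 265 FPKM in lacZ cells, and the groups overlapped (log2 fold change 0.10, limma adjusted p = 0.774).

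The BH3-only genes did not share a direction, and none passed. Bbc3 (chromosome 7, 16308393 to 16318205), which encodes PUMA, a p53 target that binds all anti-apoptotic members, had the largest log2 fold change of the 9 tested genes. It was at 7.45, 8.27 and 5.75 FPKM in knockout cells against 2.87, 2.45 and 5.07 FPKM in lacZ cells. Each knockout library lay above each control, with control replicate 9 nearest. The means of 7.16 ± 1.28 and 3.46 ± 1.41 FPKM (SD, n = 3 each) gave a log2 fold change of 0.90 (SE 0.27, 95% interval 0.28 to 1.52) with a limma adjusted p of 0.0955. Corrected for length and GC content it was 0.42 (limma adjusted p = 0.260).

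Bcl2l11 (chromosome 2, 128126038 to 128162547), which encodes BIM, the activator of death after cytokine withdrawal, went the other way. It was at 2.73, 2.10 and 3.46 FPKM in knockout cells against 4.15, 4.81 and 4.67 FPKM in lacZ cells, with no overlap. The means were 2.76 ± 0.678 and 4.54 ± 0.348 FPKM (SD, n = 3 each), a log2 fold change of -0.57 (SE 0.22, 95% interval -1.07 to -0.08, limma adjusted p = 0.139). Corrected for length and GC content it was -0.35 (limma adjusted p = 0.279). FOXO proteins are known to induce this gene, and a FOXO core starts at position -227 from a RefSeq start on the sense strand; 3.65% of all promoter windows hold this core on either strand, that of Bbc3 among them. Foxo3 was at 8.48, 10.4 and 6.84 FPKM in knockout cells against 8.003, 8.23 and 9.28 FPKM in lacZ cells.

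Pmaip1 (chromosome 18), which encodes NOXA, a selective partner of MCL1 and A1, was the most abundant of these 3 BH3-only transcripts in all 6 libraries, though Bid, described below with the other relatives, was higher in each. It was at 73.3, 28.5 and 54.1 FPKM in knockout cells against 61.2, 62.7 and 92.0 FPKM in lacZ cells. Knockout replicate 1 lay above 2 of the 3 controls. The log2 fold change of -0.54 (SE 0.34, 95% interval -1.30 to 0.23, limma adjusted p = 0.315) became -0.16 when knockout replicate 4 was left out, -0.83 when knockout replicate 1 was, and -0.35 when control replicate 9 was.

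The effector Bax (chromosome 7, 45461697 to 45466898, minus strand) was the most abundant family member, ranking 233 of 21515 genes by mean FPKM. It was at 424, 635 and 354 FPKM in knockout cells against 396, 292 and 269 FPKM in lacZ cells. Control replicate 6 lay above knockout replicate 5, so the groups overlapped, and 12.2% of the exon bases are shared with the gene model Gm45808, which was at 2.52 FPKM or less. This gave a log2 fold change of 0.54 (SE 0.27, 95% interval -0.08 to 1.15, limma adjusted p = 0.225). It was 0.30 without knockout replicate 4 and turned to -0.09 after the length and GC correction. Bak1, the other effector, was at 100, 99.0 and 82.7 FPKM in knockout cells against 88.5, 76.4 and 91.8 FPKM in lacZ cells (log2 fold change 0.13, limma adjusted p = 0.636).

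Pmaip1 had no promoter searched. Of the other 9 genes, Bax alone held a p53 half-site, as 8.36% of all promoter windows do. It starts at position -201 and is in capitals in the stretch at chr7:45467050-45467139 (minus strand, GRCm38.p6).
Bax: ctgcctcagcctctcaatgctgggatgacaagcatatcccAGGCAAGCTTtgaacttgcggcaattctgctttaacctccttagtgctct

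**Figure D2:**
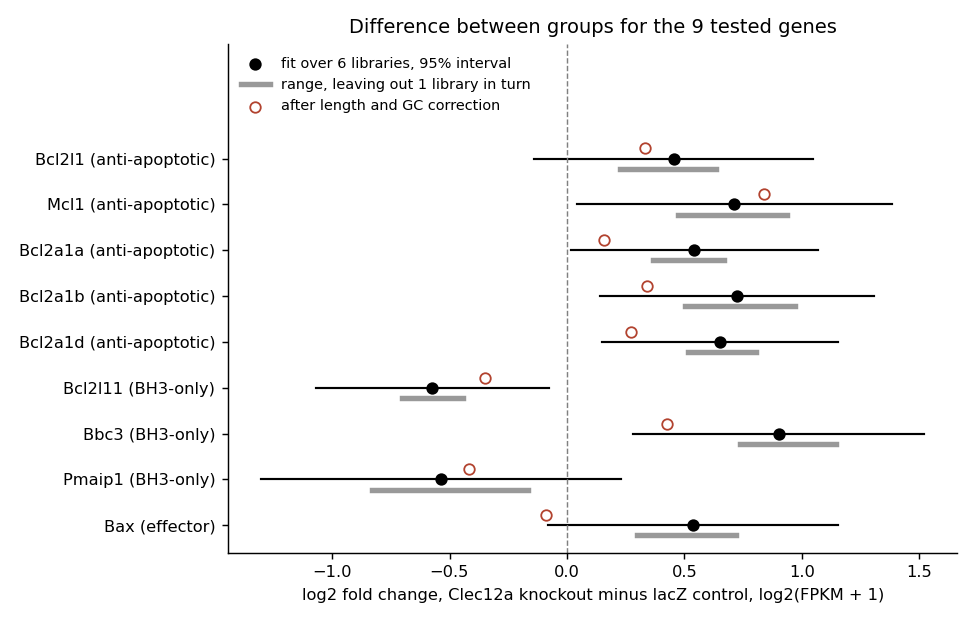
Log2 fold change of the 9 tested genes (Clec12a knockout minus lacZ control, log2(FPKM + 1) scale) with its 95% interval from limma (black), the range when each library is left out in turn (grey) and the value after the length and GC correction (open red circle). Bcl2l11 and Pmaip1 lie below 0 and the other genes above it, and Bax crosses to -0.09 after the correction.

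Transcript length moved with these differences. Over all tested genes, the median log2 fold change was 0.28 among the 2448 with the shortest transcripts (up to 2142 bases) and -0.29 among the 2448 with the longest (from 4661 bases). The 3 Bcl2a1 copies, Bbc3 and Bax fall among the shortest and all 5 had higher means in knockout cells, while the transcript of Bcl2l11 has 5036 bases. The part of length in these differences was measured only by the corrected values above, and Mcl1 was the 1 tested member whose fold change was larger after that correction. With each library scaled to the same FPKM total, which moved the median of all genes to -0.24, the members kept their directions, from 0.73 for Bbc3 to -0.74 for Pmaip1.

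A scaling factor common to all genes of a library has no bearing on the ratio of one gene to another, but the length and GC correction does move such ratios. The ratios had no test, because the genes were chosen with results known. The summed anti-apoptotic level was 237, 257 and 193 FPKM in knockout cells against 117, 149 and 187 FPKM in lacZ cells, with the Bcl2a1 copies making up 64.4% to 71.8% of it in knockout libraries and 66.6% to 70.3% in controls. The summed level of Bcl2l11, Bbc3 and Pmaip1 was 83.5, 38.9 and 63.3 FPKM in knockout cells against 68.2, 70.0 and 102 FPKM in lacZ cells. The sum of these 3 over the anti-apoptotic sum was therefore 0.353, 0.151 and 0.328 in knockout libraries and 0.582, 0.471 and 0.545 in controls, without overlap. Other BH3-only genes are left out of that sum, and Bid alone exceeded it in every library. With Bid added, a choice made after seeing the data, the ratio was 0.976, 0.652 and 1.06 in knockout libraries and 1.70, 1.33 and 1.121 in controls. With Bad, the BH3-only gene controlled by survival kinases, added as well, it was 1.204, 0.915 and 1.29 in knockout libraries and 2.05, 1.64 and 1.41 in controls. The groups did not overlap in either case, while the BH3-only sums themselves did. Among single tested genes 36.3% did not overlap, and no such share was computed for ratios. The ratios of sums were also not computed after the length and GC correction. That correction brought the log2 fold changes of Bcl2a1a, Bcl2a1b and Bcl2a1d to 0.16, 0.34 and 0.27, and that of Pmaip1 to -0.42.

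**Figure D3:**
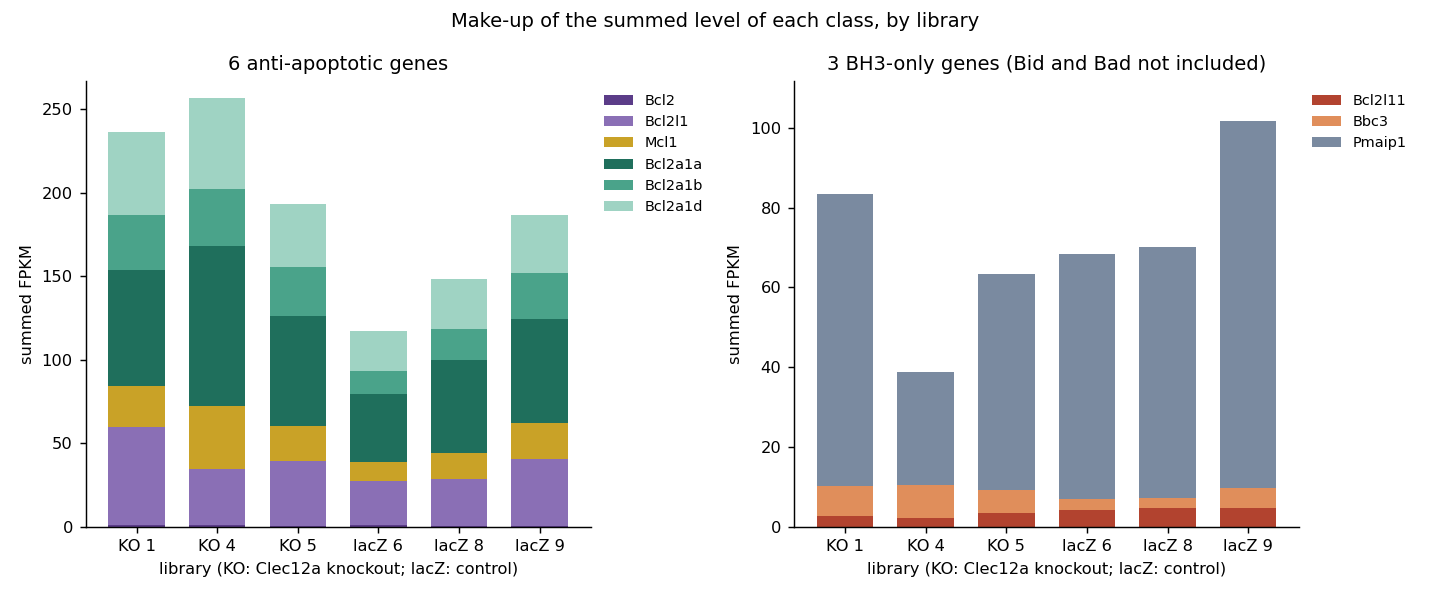
Summed FPKM (vertical axes) of the 6 anti-apoptotic genes (left) and the 3 BH3-only genes (right) in each library, Clec12a knockout (KO) libraries first and lacZ control libraries after them, divided by gene. The Bcl2a1 copies fill most of the anti-apoptotic bars and Pmaip1 most of the bars of the 3 BH3-only genes, which leave out Bid and Bad, and the anti-apoptotic bars of the 3 knockout libraries (193 to 257 FPKM) are all taller than those of the controls (117 to 187 FPKM).

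Between the most abundant contributors, Pmaip1 over the summed Bcl2a1 copies was 0.481, 0.155 and 0.407 in knockout libraries and 0.783, 0.601 and 0.740 in controls. Bcl2l11 over Mcl1 was 0.111, 0.0557 and 0.168 in knockout libraries and 0.349, 0.313 and 0.212 in controls. Pmaip1 over Mcl1 was 2.98, 0.756 and 2.63 in knockout libraries and 5.15, 4.08 and 4.17 in controls. All 3 ratios were lower in every knockout library than in any control. Pmaip1 over the Bcl2a1 copies was not computed after the length and GC correction. Bbc3 over Mcl1 overlapped, at 0.303, 0.219 and 0.279 in knockout libraries and 0.242, 0.159 and 0.230 in controls. Bbc3 over Bcl2l11 was 2.73, 3.93 and 1.66 in knockout libraries and 0.692, 0.508 and 1.09 in controls, so it was higher in every knockout library than in any control. That separation follows from the single genes, since Bbc3 was higher and Bcl2l11 lower in every knockout library, and is no further result. The difference between the log2 fold changes of Bbc3 and Bcl2l11 was 1.47, and 0.77 after the length and GC correction. That of Bbc3 and Mcl1 was 0.19 and turned to -0.41, whereas that of Bcl2l11 and Mcl1 was -1.29 and then -1.18. Bax over Bcl2, a ratio often quoted for sensitivity to apoptosis, was 548, 627 and 685 in knockout libraries and 309, 534 and 615 in controls, with overlap, and rests on the low level of Bcl2.

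**Figure D4:**
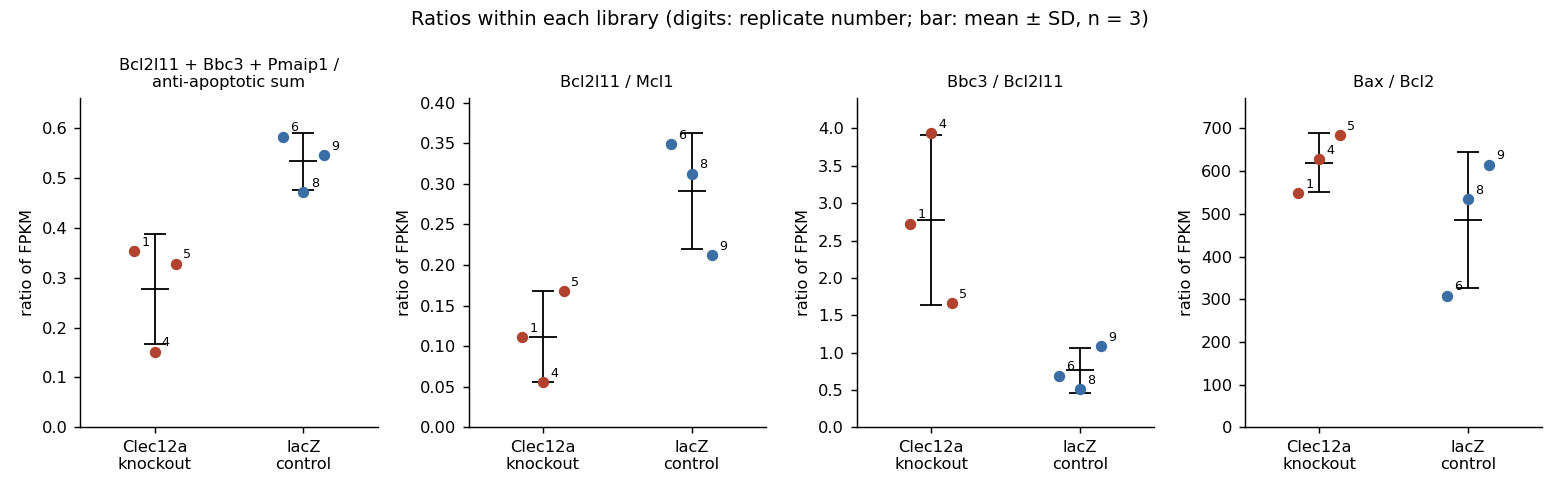
Ratios of FPKM within each library (vertical axes, from 0) for the 3 Clec12a knockout libraries (red, left) and the 3 lacZ control libraries (blue, right), with mean and SD. The first 3 ratios do not overlap between groups, with the ratio of the 3 BH3-only genes to the anti-apoptotic genes at 0.151 to 0.353 against 0.471 to 0.582, whereas Bax over Bcl2 does. For Bbc3 over Bcl2l11 the separation follows from that of each gene alone.

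Across the 6 libraries, Mcl1 ran with the Bcl2a1 copies (Pearson r of log2(FPKM + 1) 0.98 with Bcl2a1a, 0.92 with Bcl2a1b and 0.95 with Bcl2a1d) and with Bbc3 (0.90), and Bcl2l11 ran against Bax (-0.92). These 6 points share library scaling and the group difference, so the values only describe them. The tested genes most like Mcl1 were Rras (r = 0.993) and Cebpb (0.992), those most like Bcl2l11 were Mpp1 (0.996) and Rel (0.995), those most like Bax were Sos2 (0.994) and Cuedc2 (0.994), and those most like Bcl2 were Gemin8 (0.985) and Tst (0.969). With 6 libraries such values are common: 209 genes exceeded 0.95 with Bcl2l11 alone.

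Genes listed with the BCL2 relatives, and the machinery downstream of them, did not pass the test either. Over all genes tested, 1.9% passed, 27.9% had an unadjusted limma p under 0.05 and 46% a log2 fold change above 0. At 1.9%, the absence of calls in lists this short says little about them. Of 19 genes of other family members or their partners, 13 were tested, and none rose or fell (2 at an unadjusted p under 0.05). This list also holds Vdac1, Vdac2 and Bnip2, which are not BCL2 homologues. The median log2 fold change of the 13 was 0.19, against -0.06 over all genes tested. The most abundant were Vdac2, a mitochondrial channel that anchors BAK and BAX, at 294, 273 and 250 FPKM in knockout cells against 246, 241 and 249 FPKM in lacZ cells, and Bid, a BH3-only gene cleaved by caspase 8, at 147, 129 and 141 FPKM in knockout cells against 132, 128 and 108 FPKM in lacZ cells. Neither passed (limma adjusted p = 0.5996 and 0.501), and both differences were close to 0: Vdac2 turned negative with quantile normalization and with equal totals, and Bid with equal totals. Of 20 apoptosome, caspase and inhibitor genes, none passed (6 had higher and 14 lower means; 8 at an unadjusted p under 0.05). Cycs, which encodes cytochrome c, was at 333, 483 and 281 FPKM in knockout cells against 284, 215 and 210 FPKM in lacZ cells (limma adjusted p = 0.164), and Htra2, a mitochondrial protease, at 183, 190 and 157 FPKM in knockout cells against 251, 225 and 166 FPKM in lacZ cells (limma adjusted p = 0.430).

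Single genes of the death receptor, integrated stress response, p53 pathway and regulator lists did pass. Over all genes tested, 1.38% rose and 0.519% fell. Of 12 tested death receptor genes, 1 rose and none fell: Tnfrsf10b, the TRAIL receptor gene, at 3.70, 3.45 and 3.83 FPKM in knockout cells against 1.36, 0.0323 and 0.0646 FPKM in lacZ cells (limma adjusted p = 0.0399). Of 17 genes of the integrated stress response, 4 rose and none fell. The transcription factor gene Ddit3 (CHOP), known to induce BIM and PUMA, was at 37.7, 86.0 and 53.6 FPKM in knockout cells against 14.2, 13.9 and 7.81 FPKM in lacZ cells. Trib3, Ppp1r15a and Chac1 rose with it, by log2 fold changes of 2.98, 1.93 and 1.88. Neither Bbc3 nor Bcl2l11 passed in the same fit. No composite CHOP and ATF4 element, on either strand, lay in the 14 promoter windows searched. Only 0.965% of all windows hold it, so its absence from so few windows says little about these genes. The 14 windows cover 9 of the family genes, and Pmaip1 was not searched.

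Of 20 tested p53 pathway genes, 3 rose and 1 fell. The log2 fold change was above 0 for 9 of the 20 and below 0 for 11, with a median of -0.17. The stress cytokine gene Gdf15, the growth arrest gene Gadd45a and the kinase gene Plk2 rose by log2 fold changes of 3.86, 2.63 and 1.25, whereas Trp53inp1 fell by 1.09 on the log2 scale. Trp53 was at 38.4, 61.0 and 64.8 FPKM in knockout cells against 77.4, 76.8 and 45.0 FPKM in lacZ cells (limma adjusted p = 0.544). Of the p53 targets in the family, Bbc3 had a log2 fold change of 0.90 and Pmaip1 one of -0.54. Bax had one of 0.54. None of them passed. Pmaip1 turned to 0.03 with libraries weighted by their quality, and Bax to -0.09 after the length and GC correction. Of 26 tested regulators of the transcription or stability of family members, 2 rose and none fell: Nfkbia, the NF-kB inhibitor and target gene, at 351, 339 and 319 FPKM in knockout cells against 91.2, 123 and 142 FPKM in lacZ cells, and Pim3, a kinase of the family that phosphorylates BAD, at 86.3, 53.5 and 45.9 FPKM in knockout cells against 19.8, 18.6 and 25.9 FPKM in lacZ cells. An NF-kB consensus lay in promoter windows of Bbc3 and Bcl2l1, as in 8.46% of all windows, and in none of the Bcl2a1 windows. Of the 11 genes called in these lists, Trp53inp1 and Chac1 did not pass once length and GC content were corrected for. Without the filter on low values 8 did not pass (all but Gdf15, Trib3 and Ppp1r15a), with equal totals 3 did not (Tnfrsf10b, Plk2 and Pim3), and with a pseudocount of 0.1 or 0.01 it was 2 (Tnfrsf10b and Trp53inp1). Only Gdf15, Trib3 and Ppp1r15a passed when any 1 library was left out: 8 were lost without knockout replicate 4, 8 without control replicate 8 and 7 without knockout replicate 1.

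**Figure D5:**
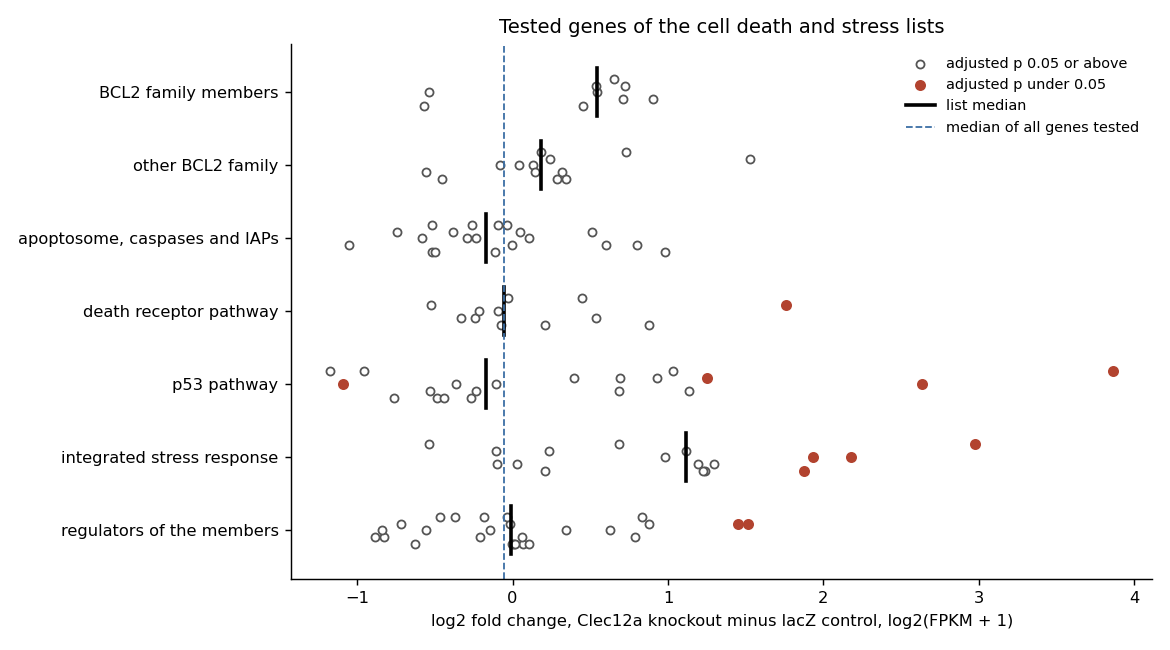
Log2 fold change (Clec12a knockout minus lacZ control, log2(FPKM + 1) scale) of each tested gene, by list, with filled red circles for an adjusted p under 0.05, open circles for the rest, black bars for list medians and a dashed line for the median of all genes tested (-0.06). The BCL2 family members have no filled circle, whereas 4 genes of the integrated stress response and 4 of the p53 pathway do.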

How the data were processed

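The authors deposited 1 table of FPKM values by gene symbol for 6 libraries, whose columns carry the sample titles. The submitters' processing notes name STAR 2.5.2b, FastQC and mm10. How reads were counted, on which annotation and strand, and how multi-mapped reads were treated is not stated in the sources used here. Depth was estimated from genes with 1 annotated transcript, as the number of fragments that brings most low values to within 0.1 of whole counts. That held for 41.7% to 62.4% of low values, so whole reads were not recovered and no count test was run.

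Genes at 1 FPKM or more in at least 3 libraries (9830) were tested on log2(FPKM + 1), a scale that understates changes of low genes, with limma 3.58.1 in R 4.3.3 (intensity trend, two-sided, Benjamini-Hochberg, threshold 0.05). The script was checked on simulated data. Symbols were matched to GENCODE M21 (21414 of 21515) for coordinates, lengths and GC content. The correction for both used splines with 4 degrees of freedom. Promoters are RefSeq's (250 bases before to 50 after a start), 14 windows for 9 genes, without Pmaip1. Motifs were searched on both strands. In addition Python 3.11.15, numpy 2.4.6, pandas 2.3.3, scipy 1.17.1 and matplotlib 3.10.9 were used.

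The genes, lists and tests were chosen with earlier results of these data known. All 10 family genes are named; from every other list, at most 4 called genes (smallest p first) or, with no call, the 2 most abundant; Clec12a; and the 2 genes most correlated with Bcl2, Mcl1, Bcl2l11 and Bax. Spi1, Foxo3, Trp53, Bak1, Bad, Bcl2a1c, Bnip3, Ccng1, Casp2, Casp6 and the marker genes named singly were added after their values were seen.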

Additional observations from a re-analysis of the deposited data

How the results depend on the processing

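Of 9 tested family genes, 7 kept the direction of their difference under every alternative run for them (20, or 19 for the 3 Bcl2a1 copies and Bcl2l11). Pmaip1 turned to 0.031 with array weights, and Bax to -0.091 after the length and GC correction. The count of family genes past the threshold stayed at 0 except with array weights, where it was 7 (6 higher, 1 lower) while 42.3% of all genes passed, and at an adjusted p under 0.1, where it was 1. It was 0 to 0 when any 1 library was left out. Over the whole table the count was 187, and it was 122 with a pseudocount of 0.01, 23 with no filter, 97 with means of 5 FPKM or more, 120 with equal totals, 4154 with array weights and 1106 at an adjusted p under 0.1. Leaving out 1 library gave 20 (without knockout replicate 4) to 197 (without control replicate 9), with 37 without knockout replicate 1, 143 without knockout replicate 5, 92 without control replicate 6 and 25 without control replicate 8; fewer samples were then tested. The Clec12a difference passed with array weights (log2 fold change -0.66, limma adjusted p = 0.0342). Vdac2 turned to -0.087 with quantile normalization and -0.059 with equal totals, and Bid to -0.018 with equal totals. The cause of these changes was not tested. No paired analysis was possible because the groups share no replicate numbers. The depth is estimated, so counting error for low genes such as Bcl2 could not be given.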

Other observations

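Caspase genes differed in direction, chosen here after their values were seen. Casp6, an executioner caspase, was at 65.4, 60.7 and 42.9 FPKM in knockout cells against 20.8, 27.0 and 37.3 FPKM in lacZ cells (log2 fold change 0.98, limma adjusted p = 0.0810). Casp2, an initiator caspase, was at 22.8, 8.93 and 25.7 FPKM in knockout cells against 37.96, 39.8 and 34.1 FPKM in lacZ cells (log2 fold change -1.05, limma adjusted p = 0.113). Neither pair of groups overlapped, and neither gene passed.

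The mitophagy gene Bnip3, a hypoxia-induced BCL2 relative, differed widely among controls and did not pass. It was at 231, 112 and 173 FPKM in knockout cells against 26.5, 39.97 and 169 FPKM in lacZ cells (log2 fold change 1.53, limma adjusted p = 0.149). Control replicate 9 lay within the knockout range for Bnip3, and it was also the control nearest to the knockout libraries for Mcl1, Bbc3 and the 3 Bcl2a1 copies. Among p53 targets outside the family, Ccng1 was at 69.1, 35.6 and 59.96 FPKM in knockout cells against 121, 130 and 111 FPKM in lacZ cells (log2 fold change -1.17, limma adjusted p = 0.0556), without overlap.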
